A study of Arabidopsis with 36 samples.

Results

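Metallothioneins are small, cysteine-rich proteins that bind copper and zinc, and in plants also cadmium, through the sulphur atoms of their cysteines. Arabidopsis carries several types: MT1 and MT2 proteins are tied to copper handling and cadmium tolerance and are known from vegetative tissues, MT3 is known mainly from leaves, and MT4 proteins belong to seeds. In polysome profiling an extract is separated on a density gradient, so that mRNAs with few ribosomes (light polysomes) are collected apart from mRNAs with many ribosomes (heavy polysomes). A short coding sequence has room for fewer ribosomes than a long one.

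The loci described are MT1A (AT1G07600), MT1C (AT1G07610), MT2A (AT3G09390), MT2B (AT5G02380), MT3 (AT3G15353) and AT1G07590, the locus that overlaps MT1A. They are 6 of the 33035 loci in the gene table. They were chosen with values in view: MT1C was selected on its wild type difference between heavy and light polysomes, and AT1G07590 on the same difference and on that between light polysomes and total RNA in wild type. The fraction contrasts of wild type are therefore given as a description, and tests are read only for the AtY34 overexpressor and for the comparison of the lines.

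The series has 36 RNA sequencing libraries from whole Arabidopsis seedlings aged 11 days, all labelled Mock for treatment: total RNA, light polysomes and heavy polysomes of 4 lines, with 3 libraries each. The 18 libraries used are those of wild type (Col-2) and of an AtY34 overexpressor; those of the AtYchF1 overexpressor and the AtYchF1 knockdown mutant are not analysed here. What AtY34 encodes, the promoter behind the transgene and the number of independent lines are not given in the sources used here. AtYchF1 (AT1G30580) was at 42.5 ± 10.3, 31.1 ± 11.1 and 35.8 ± 6.11 scaled TPM in total RNA, light and heavy polysomes of wild type and at 210 ± 34.5, 195 ± 20 and 170 ± 9.03 in the AtY34 line (mean ± SD, n = 3). TPM are a transcript's share of a library per unit of length, so levels can be set side by side between genes; "scaled TPM" are TPM divided by 1 factor per library, between 0.736 and 1.39. The depth of the libraries is unknown, and libraries listed from 16035 to 19398 loci at more than 0. The labels do not tell whether the 3 libraries of a group are separate cultures; p-values then cover only the spread among these libraries, which may be technical.

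MT1C, MT1A and AT1G07590 lie next to each other on chromosome 1. In coordinates of the TAIR10.1 assembly, AT1G07590 spans chr1:2336477-2339391, which is 2915 bases. MT1A spans chr1:2338904-2339321, 418 bases that lie wholly inside the span of AT1G07590 and end 70 bases before its end. MT1C follows at chr1:2341447-2342148, 702 bases that begin 2055 bases past the end of AT1G07590. MT2A spans chr3:2889406-2890574, MT3 spans chr3:5180642-5181586 and MT2B spans chr5:506498-507244. All 6 loci are annotated as protein-coding. The transcript table has 1 transcript for each of them except MT3, which has 2; the second MT3 transcript averaged between 5.49 and 25.6 TPM over the groups, a small part of the gene's level.

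**Figure D1:**
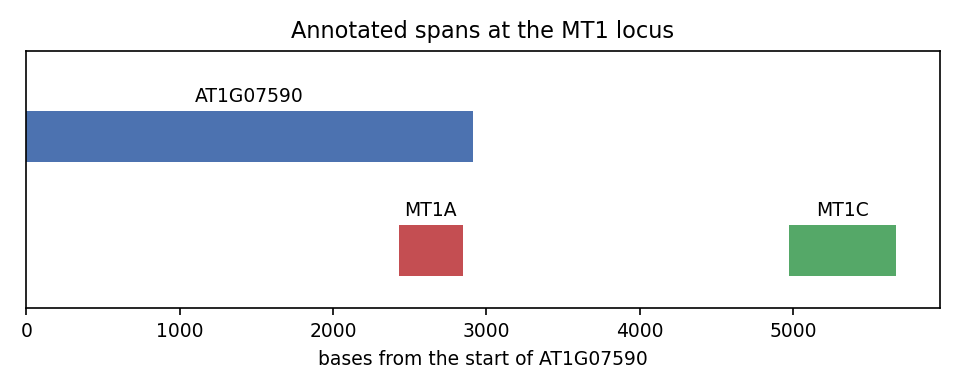
Annotated spans of AT1G07590, MT1A and MT1C, drawn to scale in bases from the start of AT1G07590. The 418 bases of MT1A lie inside the last part of the 2915 bases of AT1G07590, and MT1C begins 2055 bases after it.

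MT1A was listed at 0 in all 18 libraries, while AT1G07590, within whose span it lies, was listed among the most abundant loci. The annotation table used gives no strand, so whether reads from the MT1A span were counted for AT1G07590 cannot be settled from these files, and the values of AT1G07590 are those of a locus whose reads cannot be told apart from those of MT1A. MT1A and MT1C encode closely similar proteins, so how the authors' quantification divided reads between these 2 genes is uncertain as well, and the values of MT1C carry that limit. Of 26640 protein-coding nuclear loci with coordinates, 241 lie wholly inside another protein-coding locus, and 61 of these (25.3%) were at 0 in all 18 libraries, against 4899 of 26399 other loci (18.6%). Among the 61 enclosing loci, AT1G07590 had the highest mean, at 1277 TPM as deposited, and the next, AT2G23120, had 532 TPM. The other annotated metallothioneins were also listed at 0 or nearly so: AtMT4a (AT2G42000) was listed at 0 in all 18 libraries, AtMT4b (AT2G23240) was above 0 in 1 light polysome library of wild type at 4.53 scaled TPM, and MT1B (AT5G56795) was above 0 in 1 total RNA library of wild type at 64.5 scaled TPM. A value of exactly 0 can be a failed estimate where transcripts share sequence or overlap, so these loci are given as listed at 0. MT1C, MT2A, MT2B, MT3 and AT1G07590 passed the filter on low values (a TPM of 1 or more in 3 or more libraries) and MT1A did not.

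MT1C was highest in light polysomes and lowest in heavy polysomes in both lines. In wild type its scaled TPM were 1067, 849 and 1127 in the total RNA libraries, 2722, 1747 and 2643 in light polysomes and 552, 303 and 623 in heavy polysomes. On this scale every light polysome library lay above every total RNA library, and every total RNA library lay above every heavy polysome library. In the AtY34 line the values were 733, 980 and 1075 in total RNA, 2353, 1934 and 2833 in light polysomes and 600, 518 and 530 in heavy polysomes. The order of the fractions was the same, again with no overlap between them in scaled TPM. The share of all genes without overlap was not computed, so nothing is read from these separations in either line. As deposited, without scaling, the light polysome libraries stayed above all others in both lines, but total RNA and heavy polysomes overlapped: MT1C ran from 625 to 882 TPM in total RNA and from 337 to 738 in heavy polysomes of wild type, and from 571 to 878 and from 630 to 720 in the AtY34 line. By mean level MT1C ranked 75th of the nuclear genes in total RNA, 17th in light polysomes and 155th in heavy polysomes of wild type, and 77th, 17th and 129th in the AtY34 line.

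The reads counted for AT1G07590 cannot be told apart from those of MT1A, so its level and ratios may not describe its own mRNA. As listed, AT1G07590 had nearly the same profile as MT1C, at nearly the same level. In wild type it was at 1023, 808 and 872 scaled TPM in total RNA, 2917, 1899 and 2623 in light polysomes and 560, 432 and 488 in heavy polysomes. In the AtY34 line it was at 827, 779 and 1035 in total RNA, 2286, 1666 and 2611 in light polysomes and 506, 459 and 602 in heavy polysomes. In scaled TPM the 3 fractions did not overlap in either line. Nothing is read from that separation, since its share over all genes was not computed. As deposited, light polysomes stayed apart, and total RNA and heavy polysomes overlapped, at 595 to 799 and 479 to 699 TPM in wild type and at 596 to 845 and 559 to 715 in the AtY34 line.

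**Figure D2:**
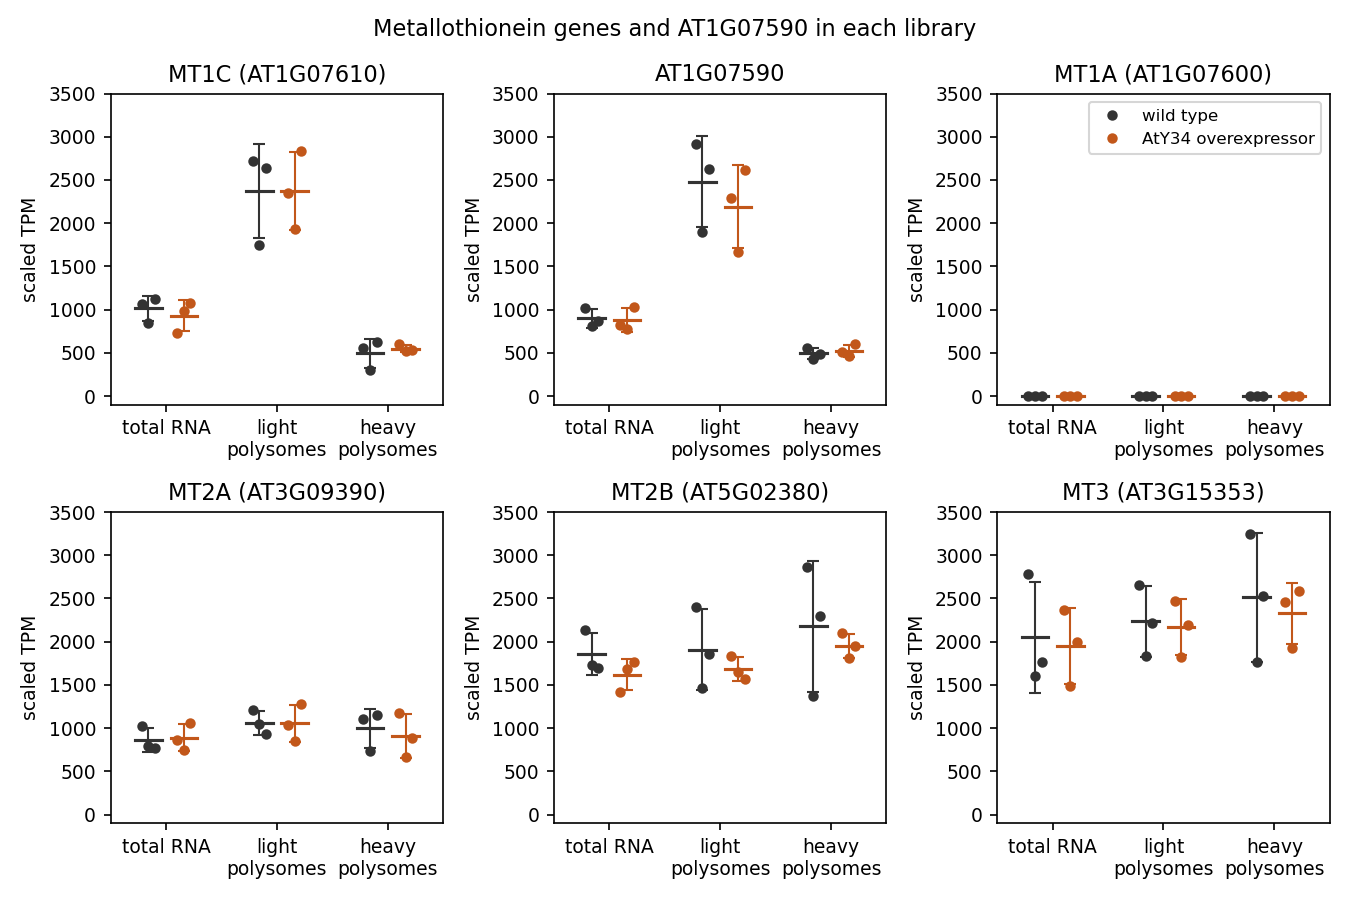
Scaled TPM of the 6 loci in each of the 18 libraries, by fraction and line; points are libraries, horizontal bars are means and error bars are SDs (n = 3). MT1C and AT1G07590 peak in light polysomes at means from 2188 to 2480 and are lowest in heavy polysomes at means from 493 to 549, MT1A lies at 0, and MT2A, MT2B and MT3 show no such separation.

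In wild type, the line on which both were selected, mean MT1C was 2371 ± 542 in light and 493 ± 168 in heavy polysomes, 4.81-fold apart, and mean AT1G07590 was 2480 ± 524 and 493 ± 64.3, 5.03-fold apart. In that comparison limma placed 0.957% of the 20171 genes tested past an adjusted p of 0.05 and 2 of the 5 tested loci, MT1C and AT1G07590, which is what they were selected for. For light polysomes against total RNA in wild type, 0.104% of all genes passed and 1 of the 5 loci did, AT1G07590, at 2.75-fold; MT1C was 2.34-fold higher and did not pass. For the heavy fraction of wild type against its total RNA, 0.129% of all genes passed and none of the 5 loci, with MT1C 2.06-fold and AT1G07590 1.83-fold lower. These contrasts share their libraries with the selection, and nothing is read from them.

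The AtY34 overexpressor libraries, which the selection did not use, were tested. MT1C was at 2373 ± 450 in light and 549 ± 44.0 in heavy polysomes, 4.32-fold lower in heavy polysomes (log2 fold change -2.09, SE 0.25, limma adjusted p = 0.00076). AT1G07590 was at 2188 ± 480 and 522 ± 72.9, 4.19-fold lower (log2 fold change -2.05, SE 0.20, limma adjusted p = 1.29e-04). These were 2 of the 5 loci tested, where 0.689% of all genes passed the same threshold; 1.44% of all genes tested had a lower log2 fold change than MT1C and 1.60% a lower one than AT1G07590. The wild type libraries entered this comparison through the shared estimate of the spread, the scaling reference and the filter. With only the 9 libraries of the AtY34 line, a fit added after the data were seen, both loci still passed (limma adjusted p = 0.0164 for MT1C and 0.0184 for AT1G07590); with only the 6 libraries compared neither did (limma adjusted p = 0.0986 for both).

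Light polysomes and total RNA of the AtY34 line differed in the same members. MT1C rose from 929 ± 177 in total RNA to 2373 ± 450, 2.55-fold (log2 fold change 1.35, SE 0.25, limma adjusted p = 0.0475), and AT1G07590 rose from 880 ± 136 to 2188 ± 480, 2.49-fold (log2 fold change 1.30, SE 0.20, limma adjusted p = 0.0131). These are 2 of 5 loci, against 0.109% of all genes. These calls lie near the threshold: when 1 of the 6 libraries compared was left out, MT1C passed in none of the 6 fits and AT1G07590 in 2, those without the third total RNA library and without the second light polysome library. Heavy polysomes against total RNA gave no call among the 5 loci in limma, where 0.0644% of all genes passed. Before adjustment 2 of the 5 had a limma p under 0.05, beside 1795 of 20171 over all genes. MT1C was 1.69-fold lower in heavy polysomes than in total RNA (log2 fold change -0.74, 95% interval -1.27 to -0.22, limma adjusted p = 0.36). AT1G07590 was 1.69-fold lower (-0.75, 95% interval -1.17 to -0.33, limma adjusted p = 0.221). The libraries of either did not overlap in scaled TPM and overlapped in TPM as deposited. The share of all genes without overlap was not computed, so nothing is read from this.

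The size of a difference from total RNA, and whether heavy polysomes stand apart from it, depend on the scaling. With TPM as deposited the median log2 difference of all genes tested in the AtY34 line was 0.52 for heavy polysomes against total RNA and 0.44 for light polysomes against total RNA, against 0.03 and 0.06 with scaled TPM. MT1C and AT1G07590 in heavy polysomes were then at -0.11 and -0.12 against total RNA, still below that median. Between heavy and light polysomes the median was 0.07 with TPM as deposited and -0.04 with scaled TPM.

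**Figure D3:**
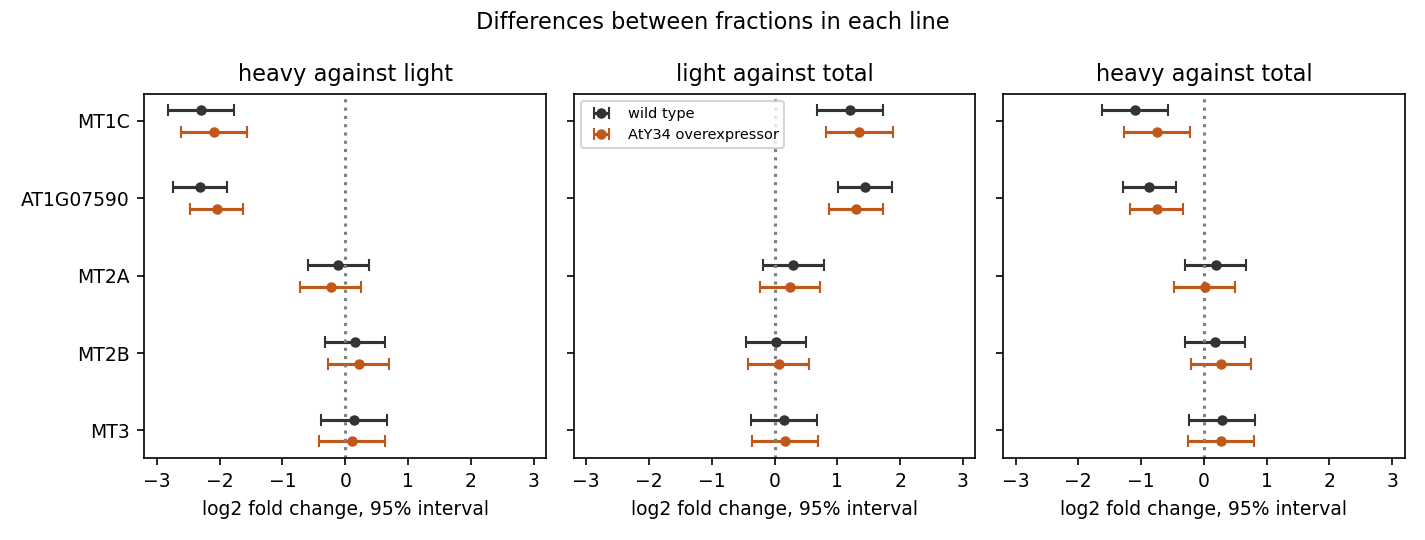
Log2 fold changes of scaled TPM between fractions with 95% intervals for the 5 loci tested, in wild type (black) and the AtY34 overexpressor (orange). For heavy against light polysomes MT1C and AT1G07590 lie between -2.31 and -2.05 in both lines and the other 3 between -0.23 and 0.21.

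Ratios between genes of 1 library need no scaling between libraries. AT1G07590 divided by MT1C lay between 0.773 and 1.42 in all 18 libraries, with a mean of 0.976. The ratio was 0.928 ± 0.13 in total RNA, 0.984 ± 0.0864 in light polysomes and 1.01 ± 0.237 in heavy polysomes (SD, n = 6, both lines together). In the AtY34 line alone, whose libraries took no part in the selection, it ran from 0.795 to 1.13 in total RNA, from 0.862 to 0.972 in light polysomes and from 0.843 to 1.13 in heavy polysomes. The ranges of the 3 fractions overlapped.

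Over all 18 libraries MT1C against MT3 separated the fractions without overlap. The wild type part of this is a description, since MT1C was selected on wild type libraries. The ratio of their TPM was between 0.310 and 0.658 in total RNA, between 0.951 and 1.29 in light polysomes and between 0.170 and 0.269 in heavy polysomes. The ratio of MT1C to MT2B was between 0.492 and 0.663 in total RNA, between 1.13 and 1.80 in light polysomes and between 0.192 and 0.286 in heavy polysomes. In the AtY34 line alone, MT1C over MT3 ran from 0.952 to 1.29 in light polysomes. It ran from 0.310 to 0.658 in total RNA and from 0.205 to 0.269 in heavy polysomes. MT1C over MT2B in that line ran from 1.17 to 1.80 in light polysomes. It ran from 0.518 to 0.611 in total RNA and from 0.272 to 0.286 in heavy polysomes. On average MT1C stood at 1.08 ± 0.137 of the level of MT3 in light polysomes and at 0.218 ± 0.0414 of it in heavy polysomes (SD, n = 6). MT2B against MT3 stayed between 0.599 and 1.13 over the 18 libraries, with overlapping fractions. How many gene pairs separate the fractions was not computed, so nothing is read from the separations of the MT1C ratios.

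**Figure D4:**
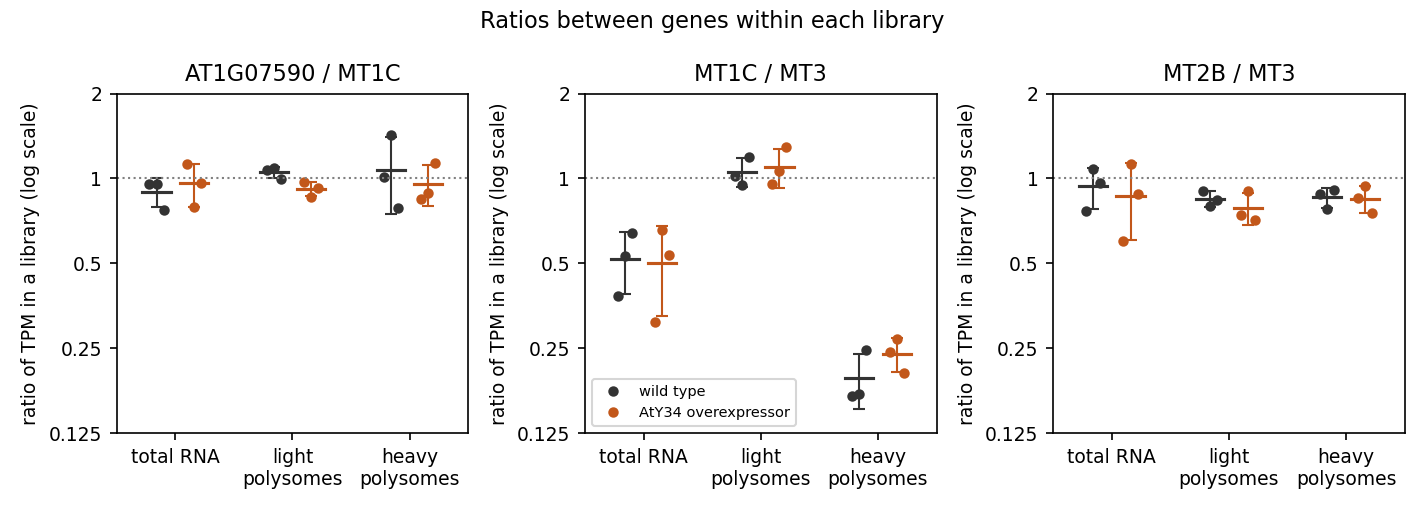
Ratios of TPM between pairs of genes within each library, on a log axis, by fraction and line; points are libraries, horizontal bars are means and error bars are SDs (n = 3), and the dotted line marks a ratio of 1. AT1G07590 over MT1C lies between 0.773 and 1.42 and MT2B over MT3 between 0.599 and 1.13, both with overlapping fractions. MT1C over MT3 is 0.951 or more in every light polysome library and 0.269 or less in every heavy polysome library. MT1C was selected on wild type libraries, so the wild type points are a description.

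MT2A, MT2B and MT3 were abundant in all 3 fractions and none passed in any fraction contrast. MT3, the leaf type, had the highest mean of the 6 loci in total RNA and in heavy polysomes of both lines. It was at 2049 ± 640, 2236 ± 411 and 2513 ± 744 scaled TPM in total RNA, light and heavy polysomes of wild type and at 1951 ± 437, 2165 ± 324 and 2328 ± 352 in the AtY34 line. MT2B was at 1854 ± 245, 1908 ± 471 and 2179 ± 758 in wild type and at 1618 ± 180, 1687 ± 138 and 1954 ± 140 in the AtY34 line. MT2A was at 864 ± 140, 1062 ± 139 and 996 ± 230 in wild type and at 886 ± 156, 1055 ± 215 and 908 ± 252 in the AtY34 line. In scaled TPM the libraries of these 3 genes overlapped between fractions in both lines, except that the heavy polysome libraries of the AtY34 line, at 2096, 1815 and 1952 for MT2B, lay above its total RNA libraries, at 1415, 1680 and 1759. That difference was 1.21-fold and did not pass (log2 fold change 0.28, 95% interval -0.20 to 0.76, limma adjusted p = 0.767). As deposited, both polysome fractions stood above total RNA without overlap for all 3 genes in the AtY34 line and for MT2A in wild type, and heavy polysomes stood above light for MT2B and MT3 in the AtY34 line. None of these differences passed in limma on that scale either. The median of all genes was itself above total RNA there, by 0.44 (light) and 0.52 (heavy) log2 units in the AtY34 line. In wild type it was 0.45 and 0.52. The share of all genes without overlap was not computed, so nothing is read from these separations.

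The intervals bound what these libraries could show for the type 2 and type 3 genes. For heavy against light polysomes in the AtY34 line the 95% interval of the log2 fold change ran from -0.72 to 0.25 for MT2A, from -0.27 to 0.69 for MT2B and from -0.42 to 0.63 for MT3. None of the 3 intervals reaches the -2.09 of MT1C or its upper bound of -1.57.

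In total RNA the order of level was MT3, MT2B, MT1C, AT1G07590 and MT2A in wild type, and MT3, MT2B, MT1C, MT2A and AT1G07590 in the AtY34 line. In both lines the neighbours in that order differed by less than the larger of their SDs, except for the step between MT2B and MT1C. In light polysomes of wild type the order was AT1G07590, MT1C, MT3, MT2B and MT2A, and only the step between MT2B and MT2A was larger than the SDs. In light polysomes of the AtY34 line the order was MT1C, AT1G07590, MT3, MT2B and MT2A, and the step from MT3 to MT2B was larger than the SDs as well. In heavy polysomes MT3, MT2B and MT2A followed each other and MT1C and AT1G07590 stood together below them in both lines, by more than the SDs.

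Of the summed TPM of MT1C, MT2A, MT2B and MT3, MT1C made up 17.8% ± 2.96 in total RNA, 31.2% ± 3.06 in light polysomes and 7.94% ± 1.29 in heavy polysomes of wild type, and 17.3% ± 3.29, 32.5% ± 3.02 and 9.63% ± 0.818 in the AtY34 line (SD, n = 3). MT3 made up 34.9% ± 4.13, 29.6% ± 0.593 and 40.8% ± 2.16 in wild type. MT2A varied least between fractions, from 14.3% to 16.4% over the 6 group means. All 6 loci together held 0.513% ± 0.103 of all TPM in total RNA, 1.06% ± 0.261 in light polysomes and 0.797% ± 0.268 in heavy polysomes of wild type, and 0.494% ± 0.0664, 1.05% ± 0.205 and 0.761% ± 0.016 in the AtY34 line.

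**Figure D5:**
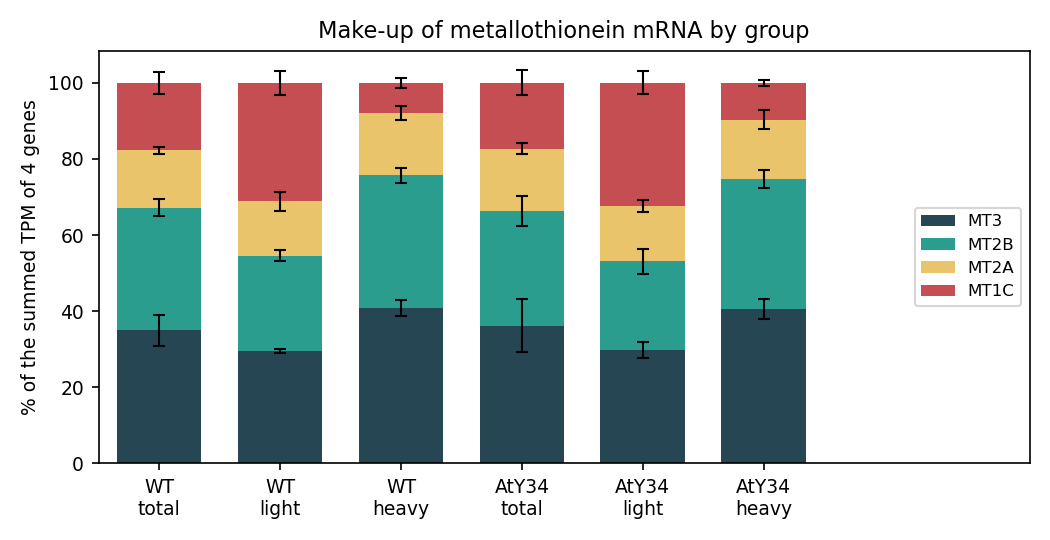
Share of MT1C, MT2A, MT2B and MT3 in the sum of their TPM, in percent, for each line and fraction; segments are group means and error bars at the top of each segment are the SDs of that segment's share (n = 3). The MT1C share is 31.2% and 32.5% in light polysomes and 7.94% and 9.63% in heavy polysomes.

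No locus passed between the AtY34 overexpressor and wild type. In total RNA 0 of the 5 loci passed in limma, where 0.0793% of all genes did; in light polysomes 0 of 5, against 0.0347%; and in heavy polysomes 0 of 5, against 0.0198%. None of the 15 unadjusted p-values was under 0.05. The log2 differences ran from -0.19 for MT2B in total RNA to 0.22 for MT1C in heavy polysomes, with SEs between 0.20 and 0.25, so that the 95% intervals reached at most -0.67 and 0.75. In these comparisons the 3 seed storage markers (CRA1, CRU3 and SESA3) summed to between 1.99 and 110 scaled TPM in the wild type libraries and between 0 and 9.54 in those of the AtY34 line; their part in the results was not tested.

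The fraction differences were also set against each other between the lines, as a description, since they share the wild type values used in the selection. For heavy against light polysomes the AtY34 line minus wild type was 0.21 (SE 0.35) for MT1C and 0.26 (SE 0.29) for AT1G07590 on the log2 scale. For this difference 0% of all genes and 0 of the 5 loci passed in limma, and 691 genes had an unadjusted p under 0.05. The same difference for light polysomes against total RNA was 0.15 (SE 0.35) for MT1C and -0.14 (SE 0.29) for AT1G07590, with 0 of 5 loci against 0.00992% of all genes. For heavy polysomes against total RNA it was 0.35 (SE 0.35) and 0.12 (SE 0.29), with 0 of 5 loci against 0.00496% of all genes. The 95% interval of the first of these differences ran from -0.54 to 0.95 for MT1C, so that differences within that range between the lines are not excluded.

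Likeness of profile was measured as the Pearson correlation of log2(scaled TPM + 1) over the 18 libraries, among 4371 genes with a mean of at least 20; the libraries share 6 groups, so a value describes these groups and carries no p. The gene most like MT1C was AT1G07590 (r = 0.974), followed by the non-coding RNA locus AT1G10682 (0.969) and AT2G42220 (0.945). AT1G10682 averaged 589 scaled TPM in light and 41.8 in heavy polysomes of wild type. The genes most like AT1G07590 were MT1C, AT5G59613 (0.960) and AT1G10682 (0.958). MT1C and AT1G07590 were both selected on wild type libraries that enter these correlations. Their likeness was thus partly set by the selection and is given as a description.

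The profiles of the other 3 metallothioneins had looser neighbours. MT3 was most like TRX3, a cytosolic thioredoxin (0.801), UBQ11, a polyubiquitin (0.791), and HTA7, a histone H2A (0.757). MT2B was most like CCL (0.767), TRX3 (0.741) and AT5G23820 (0.728), and MT2A was most like AT2G40765 (0.786), PSBW, a photosystem II subunit (0.779), and AT2G23120 (0.735). Among the members, MT2B and MT3 correlated at 0.727 and MT2A and MT3 at 0.657, and MT2A and MT2B at 0.481. MT1C correlated with MT2A at 0.425, with MT3 at -0.0014 and with MT2B at -0.05.

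The level of MT1C and AT1G07590 was not shared by the rest of the region. The 5 annotated genes before AT1G07590 (SCL14, TRFL2, AT1G07550, AT1G07560 and APK1A) and the 5 after MT1C (AT1G07615, ATOBGM, PLL5, OBP2 and AT1G07650) stayed at or below 21.2 scaled TPM in every library. Of these 10 genes, 8 were tested and none passed for heavy against light polysomes in the AtY34 line, where 0.689% of all genes did, so the count is near the background. OBP2, a DOF-type transcription factor, was the highest of the 10, with means between 8.39 and 16.3 scaled TPM over the 6 groups, and its log2 fold change was -0.74 (adjusted p = 0.692).

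Short genes as a group also lay towards light polysomes. Protein-coding genes averaging 20 scaled TPM or more were grouped by the length of the annotated gene span, introns included, which is not the length of the protein. For heavy against light polysomes in the AtY34 line the median log2 fold change was -0.44 over 433 genes of up to 1000 bases, -0.17 over 1653 genes of 1001 to 2000 bases, 0.03 over 1751 genes of 2001 to 4000 bases and 0.21 over 322 longer genes. The median rose with each step in span. MT1C, at 702 bases and -2.09, lay above 29 of the 433 shortest genes, so that most genes of its span class were shifted less. MT2B at 747 bases and MT3 at 945 bases belong to the same class and were at 0.21 and 0.10, above its median. AT1G07590, with a span of 2915 bases and at -2.05, belongs by annotation to the class whose median was 0.03. In that class 4 of 1751 genes lay below the value of MT1C. The class that fits the reads of AT1G07590 is uncertain, since they cannot be told apart from those of MT1A, which spans 418 bases.

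Other metal handling genes were taken from a list of 46 for copper, zinc and cadmium transport, chelation and iron storage, of which 42 were tested. In limma 0 of the 42 passed in each of the 12 comparisons, where between 0% and 0.957% of all genes did, so the count lies near the background. Between 0 and 4 of them had an unadjusted p under 0.05; for heavy against light polysomes in the AtY34 line it was 3 of 42, beside 2398 of 20171 over all genes. For heavy against light polysomes in the AtY34 line 26 of them had a positive and 15 a negative log2 fold change, with a median of 0.19 beside -0.04 over all genes. COPT6, a copper transporter, was at 263 scaled TPM in light and 117 in heavy polysomes of that line (log2 fold change -1.20, SE 0.37, adjusted p = 0.164), and ATX1, a copper chaperone, at 153 and 73.3 (-0.87, SE 0.41, adjusted p = 0.421). CCH, the related copper chaperone, was at 240 and 321 (0.45, SE 0.26, adjusted p = 0.534). Beside COPT6, those with an unadjusted limma p under 0.05 were ABCC2 and ZIP3, both low in level and higher in heavy polysomes. ABCC2 was at 4.50 and 9.41 (0.91, SE 0.37, limma adjusted p = 0.333). ZIP3 was at 1.93 and 6.04 (1.64, SE 0.71, limma adjusted p = 0.364). The highest medians over the 18 libraries in the list were 310 scaled TPM for CCH and 173 for FER1, a ferritin that stores iron in plastids, below the lowest library of MT2A, 668.

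The seedling label was checked against markers fixed for 6 tissues or states. The 3 leaf mesophyll markers summed to between 16512 and 20418 scaled TPM in total RNA and between 10730 and 16389 in polysomes, the 3 root markers to between 1344 and 2205 in all libraries, the 3 phloem markers to between 98.9 and 190, and the 3 trichome and epidermis markers to between 60.6 and 141. The 3 senescence markers summed to between 27.4 and 73.0, and SAG12, the most specific of them, was at 0 in 4 of the 6 groups. Leaf mesophyll markers were highest in total RNA and root markers had their highest sums in heavy polysomes. PYK10 held most of the root sum, with a median of 1444 scaled TPM beside 154 for PIP2-2 and 22.5 for TIP2-3. The part of tissue make-up in the results was not tested. In RNA from whole seedlings, fewer cells of a type and less RNA per cell cannot be told apart.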

How the data were processed

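RNA of whole seedlings was sequenced from strand-specific, rRNA-depleted libraries, per the labels' protocols. The deposited values are TPM per gene and per transcript as made by the authors. The submitters' processing notes name FastQC, MultiQC, STAR and the build TAIR10, without versions. The names under which the values were deposited also give Salmon, without a version, so the values are taken as its estimates. TPM keep no read numbers, so no count model was used and the precision of a value rests on 3 libraries per group. Columns were tied to samples by name; 18 sample columns in the table of genes and 54 in that of transcripts matched no single label and were not used.

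Nuclear TPM were scaled by median ratios to a reference of geometric means over 9431 genes that reached a TPM of 1 in all 18 libraries. The 20171 genes that reached a TPM of 1 in 3 or more libraries entered a single fit of all 18 libraries, on log2(scaled TPM + 1). The fit used limma 3.58.1 (R 4.3.3), a mean for each of the 6 groups, a mean-dependent prior and two-sided tests. Benjamini-Hochberg adjustment ran over all genes tested in a comparison, with a threshold of 0.05. A fold change on this scale understates the change of low genes. Ratios of group means are of scaled TPM. The fit was also run on simulated libraries with known changes and independent errors. That run checks the code and says nothing about these loci. Among 153 library pairs, 0 were identical.

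The members, the metal handling list and the marker lists were chosen with earlier results of these data known. All 6 loci are named with their values; the rule also took the other annotated metallothioneins, 3 most similar genes per locus and 5 annotated genes on each side of AT1G07590 and MT1C. The grouping by length was planned on protein length, which the reference used here does not give, and uses gene span instead, chosen after the data were seen. Locus coordinates, symbols and biotypes come from RefSeq for the assembly TAIR10.1. Alternatives were 2 other pseudocounts, TPM without scaling, quantile normalization, no filter, fits of fewer libraries, a replicate block and leaving out each library in turn.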

Additional observations from a re-analysis of the deposited data

How the results depend on the processing

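Of the 885 refits of single loci, 858 kept their side of the threshold, 21 lost a call and 6 gained one. The sign changed in 87 refits (76 with a library left out, 7 with quantile normalization and 4 with TPM as deposited), all of differences of at most 0.22 on the log2 scale with no call in either fit. Between fractions, MT1C and AT1G07590 changed sign in 0 refits. For heavy against light polysomes in the AtY34 line, both calls held with each library left out in turn (limma adjusted p from 1.65e-04 to 0.00856). With only the libraries compared, 0 loci passed for heavy against light and for light against total, in either line; such fits hold fewer samples. For light against total in the AtY34 line, 2 loci passed in the reported fit, 1 with a pseudocount of 0.1, 1 without the filter, 0 with only the libraries of that line, and 0 to 1 with a library left out. For the same contrast in wild type, 1 locus passed as reported, and 2 with TPM as deposited and 2 with quantile normalization. The causes were not tested.

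The replicate block raised the count to 2 for light against total and 2 for heavy against total in wild type, and to 1 for heavy against total in the AtY34 line. Same-numbered libraries of a line correlated in their deviations at r from -0.05 to 0.20, over 0.1 in 4 of 18 pairs. Between light and heavy polysomes r was 0.12, 0.06 and 0.06 in wild type and 0.19, 0.20 and -0.05 in the AtY34 line. A library correlated best with its own number in 48 of 90 cases, against the 30 that unrelated numbers give on average. That is a hint of pairing, which the reported fit leaves out. Whether same-numbered fractions came from 1 extract was not established here. The libraries' depth is unknown, so no limit of detection can be given for the loci listed at 0.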
